A study of Mus musculus with 10 samples.

Results

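The genes described here encode 10 membrane carriers of sugars, lactate and urate, taken by name from the deposited comparisons of mouse kidney RNA. All 10 were found, among 30431 rows. Sodium-coupled carriers of the SLC5 family make up 5 of them (Slc5a1, Slc5a2, Slc5a8, Slc5a10 and Slc5a12), and facilitative carriers of the SLC2, or GLUT, family the other 5 (Slc2a1, Slc2a2, Slc2a4, Slc2a5 and Slc2a9). RNA came from whole kidneys of 10 mice at postnatal day 21. In the 3 animals labelled DM, Pkhd1Cre acted on floxed Pkd2 alleles (Pkd2 F/F) and miR-21 was null. The 3 animals labelled SM had Pkhd1Cre and Pkd2 F/F, with no miR-21 allele named. The 4 wild-type animals (WT) have no allele named, and whether any carried Cre or floxed Pkd2 is not stated. No group lacked miR-21 alone. Pkd2 encodes polycystin-2, whose loss from tubule cells causes polycystic kidneys, and Pkhd1Cre is known for activity in the collecting duct, so other cells of the kidney may still carry Pkd2. DM and SM share the Pkd2 deletion, and setting DM over SM asks what differs when miR-21 is also missing.

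The kidney filters glucose freely and takes nearly all of it back in the proximal tubule. In the early segments SGLT2 (Slc5a2) brings glucose in from the lumen together with sodium, and GLUT2 (Slc2a2) lets it leave towards the blood. In the last segment SGLT1 (Slc5a1) captures what is left, and GLUT1 (Slc2a1), which most cells make, is the matching exit. Proximal tubule cells also hold the lactate carriers SMCT1 (Slc5a8) and SMCT2 (Slc5a12), the mannose and fructose carrier SGLT5 (Slc5a10), the fructose carrier GLUT5 (Slc2a5) and the urate carrier GLUT9 (Slc2a9). GLUT4 (Slc2a4) is the insulin-responsive carrier of fat and muscle.

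The files hold no value per library. Levels of each group, in CPM (reads of a gene scaled to library size), were therefore derived from the authors' average and fold changes, and SE below is the standard error implied by the authors' likelihood ratio test. The depth of each library is unknown. Pkd2 stood at 170 CPM in DM kidneys, 180 CPM in SM kidneys and 239 CPM in WT kidneys, and the authors' deposited tables gave it log2 fold changes of -0.49 (adjusted p = 0.0838, SE 0.20) for DM over WT and -0.41 (adjusted p = 0.179, SE 0.20) for SM over WT, so it did not pass an adjusted p below 0.05 in whole kidney. The tissue was checked by Slc34a1, the phosphate carrier of the proximal tubule, at 1995 CPM in DM kidneys, 1862 CPM in SM kidneys and 5030.2 CPM in WT kidneys, and by uromodulin (Umod) of the thick ascending limb, at 2981 CPM in DM kidneys, 2862 CPM in SM kidneys and 3553 CPM in WT kidneys. Umod was the least changed of 6 thick limb and distal tubule markers. Their median log2 fold changes were -1.28 for DM over WT and -1.59 for SM over WT.

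Averages of the carriers over all libraries ran between 19.3 CPM for Slc2a9 and 433 CPM for Slc5a12, and levels were compared between genes per kb of annotated exon. On that scale Slc5a2 and Slc5a12 were the 2 highest of the 10 carriers in every group. Slc5a2 stood at 77.8 CPM per kb in DM kidneys, 69.6 in SM kidneys and 196 in WT kidneys. Slc5a12 stood at 71.6 CPM per kb in DM kidneys, 87.2 in SM kidneys and 147 in WT kidneys, so that it ranked above Slc5a2 in SM kidneys and below it in DM and WT kidneys. SGLT1 ranked 7 of 10 in every group, with Slc5a1 at 23.3 CPM per kb in DM kidneys, 18.6 in SM kidneys and 28.2 in WT kidneys. GLUT1 ranked higher in the mutants, with Slc2a1 at 34.8 CPM per kb in DM kidneys, 36.5 in SM kidneys and 31.4 in WT kidneys, ranks 4, 3 and 6. Slc2a9 was lowest in each group, at 3.73 CPM per kb in DM kidneys, 2.86 in SM kidneys and 4.57 in WT kidneys. No error comes with a single level, so whether neighbours in this order differ was not tested.

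**Figure D1:**
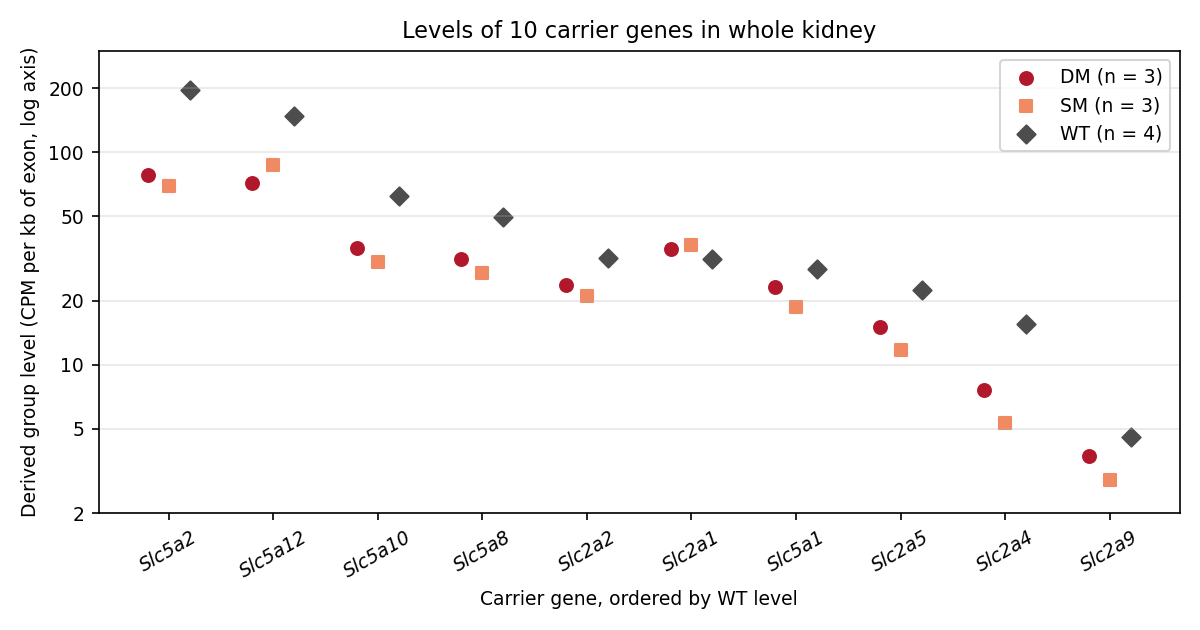
Derived level of each carrier in CPM per kb of exon (log axis) in DM, SM and WT kidneys, with genes in order of their WT level. Each point is a group value with no error bar. Slc5a2 stands at 77.8 CPM per kb in DM kidneys, 69.6 in SM kidneys and 196 in WT kidneys, while the 3 points of Slc2a1 lie between 31.4 and 36.5.

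Upstream sequence from RefSeq (GRCm38.p6) was at hand for 7 of the 10 carriers, in 8 windows of 250 bases, and Slc5a2, Slc5a12 and Slc2a4 are named only. Each window was searched on both strands for the nuclear receptor motif AAGGTCA, which many receptors of that family share, for the hypoxia response core ACGTG and for the GC box GGGCGG. Shown here are the window of Slc5a10 that held the nuclear receptor motif, and those of the glucose entry carrier SGLT1 and the exit carriers GLUT2 and GLUT1. They run 5′ to 3′ on the strand of the gene and end at the base before its RefSeq start, with motif matches in capitals.
Slc5a10, chr11:61720800-61721049, minus strand: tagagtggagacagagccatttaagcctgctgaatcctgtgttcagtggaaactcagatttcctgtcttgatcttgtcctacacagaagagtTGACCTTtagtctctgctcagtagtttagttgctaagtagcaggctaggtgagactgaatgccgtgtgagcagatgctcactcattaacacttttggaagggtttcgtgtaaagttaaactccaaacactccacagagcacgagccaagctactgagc
Slc5a1, chr5:33103969-33104218, plus strand: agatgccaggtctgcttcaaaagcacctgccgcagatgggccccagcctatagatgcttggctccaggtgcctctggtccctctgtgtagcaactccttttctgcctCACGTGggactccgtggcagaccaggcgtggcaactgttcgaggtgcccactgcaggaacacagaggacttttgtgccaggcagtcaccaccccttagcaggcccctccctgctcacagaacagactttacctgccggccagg
Slc2a2, chr3:28697653-28697902, plus strand: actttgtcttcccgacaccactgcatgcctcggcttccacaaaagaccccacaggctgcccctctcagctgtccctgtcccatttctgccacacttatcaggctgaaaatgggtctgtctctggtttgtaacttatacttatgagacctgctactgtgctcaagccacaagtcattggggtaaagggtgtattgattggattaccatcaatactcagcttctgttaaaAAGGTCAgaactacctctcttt
Slc2a1, chr4:119108495-119108744, plus strand: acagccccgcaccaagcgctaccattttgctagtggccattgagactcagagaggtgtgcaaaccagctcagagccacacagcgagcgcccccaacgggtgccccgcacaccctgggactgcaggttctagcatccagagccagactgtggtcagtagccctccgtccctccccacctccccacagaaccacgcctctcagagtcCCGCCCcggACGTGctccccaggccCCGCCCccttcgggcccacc
AAGGTCA was found 158 bases upstream of Slc5a10 and 22 bases upstream of Slc2a2, not in the other window of Slc5a10, and in 4.08% of all 32851 windows. ACGTG was found 36 bases upstream of Slc2a1 and, on both strands of an overlapping CACGTG, 143 and 142 bases upstream of Slc5a1, against 16.6% of all windows. GGGCGG was found on the reverse strand 45 and 20 bases upstream of Slc2a1, and also in the windows of Slc2a5 and Slc5a8, against 32.7% of all windows. A match is a run of letters and not a measured binding site.

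SM kidneys, with Pkd2 deleted, held less RNA of both glucose entry carriers, SGLT2 and SGLT1, than WT kidneys. The same held for the sugar carriers SGLT5 and GLUT5 and for GLUT4. In the authors' deposited table for SM over WT, 5 of the 10 carriers fell and 0 rose at an adjusted p below 0.05. Of all rows there, 14% were called, 7.87% higher and 6.09% lower. Within the carriers' range of average level, which takes in 8360 rows, 11.2% were called lower. The median log2 fold change of the 10 was -0.82, against -0.04 for the rows in that range. In whole kidney, fewer cells of a type and less RNA per cell cannot be told apart.

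SGLT2 takes up most of the filtered glucose. Slc5a2 (chromosome 7, 128265657 to 128272430, plus strand, GRCm38) stood at 202 CPM in SM kidneys and 567 CPM in WT kidneys, and the authors' deposited table gave it a log2 fold change of -1.49 (adjusted p = 4.04e-06, SE 0.28), or 35.5% of the WT level. SGLT1 fell by a smaller amount. Slc5a1 (chromosome 5, 33104219 to 33162870, plus strand) stood at 76.4 CPM in SM kidneys and 116 CPM in WT kidneys, with a log2 fold change of -0.60 (adjusted p = 0.0336, SE 0.21) in the authors' deposited table. Its adjusted p from that likelihood ratio test was 0.04999 when the 3 tables were adjusted together. The 95% interval was -2.04 to -0.95 for Slc5a2 and -1.01 to -0.19 for Slc5a1, and the intervals overlap slightly. Whether these carriers differ in their fold change was not tested.

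The fructose carriers and GLUT4 were lower too. Slc5a10 (chromosome 11, 61672781 to 61720826, minus strand) stood at 71.8 CPM in SM kidneys and 147 CPM in WT kidneys, with a log2 fold change of -1.03 (adjusted p = 0.00395, SE 0.28) in the authors' deposited table. Slc2a5 (chromosome 4, 150119283 to 150144169, plus strand) stood at 40.03 CPM in SM kidneys and 76.5 CPM in WT kidneys, with a log2 fold change of -0.93 (adjusted p = 0.00237, SE 0.25) in the authors' deposited table. GLUT4 had the lowest fold change of the 10 carriers. Slc2a4 (chromosome 11, 69942539 to 69948188, minus strand) stood at 18.5 CPM in SM kidneys and 54.0 CPM in WT kidneys, with a log2 fold change of -1.54 (adjusted p = 1.69e-05, SE 0.31) in the authors' deposited table, or 34.3% of the WT level.

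The lactate carriers did not pass for SM over WT. Slc5a8 (chromosome 10, 88885992 to 88929515, plus strand) stood at 144 CPM in SM kidneys and 265 CPM in WT kidneys, with a log2 fold change of -0.88 (adjusted p = 0.0551, SE 0.33) in the authors' deposited table, just outside the threshold, and it passed at an adjusted p of 0.0357 when only rows of at least 1 CPM were adjusted over. Slc5a12 (chromosome 2, 110597298 to 110647779, plus strand) stood at 354 CPM in SM kidneys and 599 CPM in WT kidneys, with a log2 fold change of -0.76 (adjusted p = 0.109, SE 0.32) in the authors' deposited table. Both values are negative. The exit carrier GLUT2 and the urate carrier GLUT9 also lay below 0 without passing. Slc2a2 (chromosome 3, 28697903 to 28731359, plus strand) stood at 120 CPM in SM kidneys and 182 CPM in WT kidneys, with a log2 fold change of -0.60 (adjusted p = 0.144, SE 0.27) in the authors' deposited table. Slc2a9 (chromosome 5, 38349273 to 38503143, minus strand) stood at 14.5 CPM in SM kidneys and 23.2 CPM in WT kidneys, with a log2 fold change of -0.68 (adjusted p = 0.109, SE 0.29) in the authors' deposited table.

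GLUT1 was the 1 carrier of the 10 with a positive fold change. Slc2a1 (chromosome 4, 119108711 to 119137983, plus strand) stood at 128 CPM in SM kidneys and 110 CPM in WT kidneys, with a log2 fold change of 0.22 (adjusted p = 0.605, SE 0.20) in the authors' deposited table. Its 95% interval, -0.16 to 0.60, lies above those of the 5 carriers that fell, narrowly so for Slc5a1, and takes in 0. Whether Slc2a1 differs from those carriers in its fold change was not tested.

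**Figure D2:**
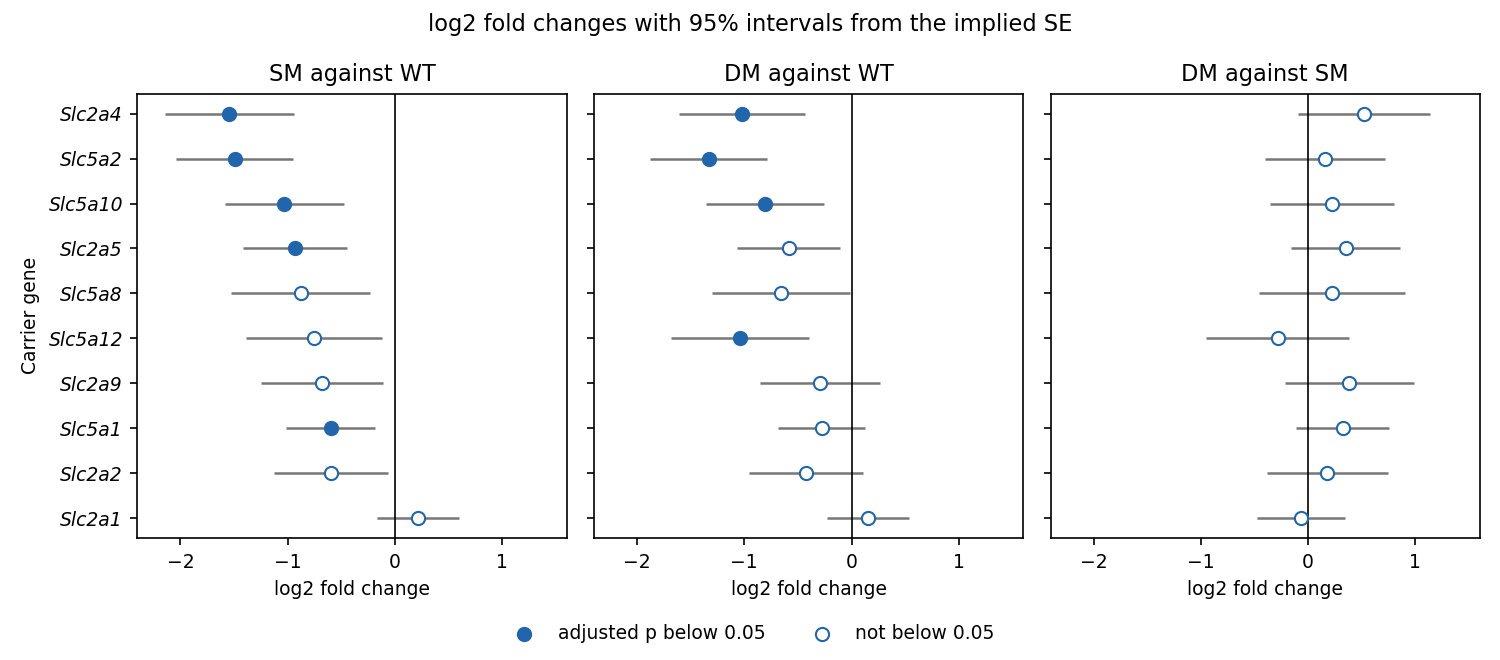
log2 fold change of each carrier for each pair of groups, from the authors' deposited tables, with bars for the 95% interval from the implied SE. Filled points have an adjusted p below 0.05. They number 5 for SM over WT, 4 for DM over WT and 0 for DM over SM, and those 5 and 4 lie left of 0.

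DM kidneys, with Pkd2 deleted and miR-21 null, were lower in SGLT2, SGLT5 and GLUT4, and in the lactate carrier SMCT2. For DM over WT, the authors' deposited table called 4 of the 10 carriers lower and 0 higher, beside 13.5% of all rows called, 7.55% higher and 5.92% lower, and 9.95% lower within the carriers' range of level. The median of the 10 was -0.62, against -0.04 over that range. Slc5a2, Slc5a10 and Slc2a4 passed against WT in both mutants, and these comparisons share the 4 WT libraries.

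SGLT2 was again far below WT. Slc5a2 stood at 225 CPM in DM kidneys and 567 CPM in WT kidneys, with a log2 fold change of -1.33 (adjusted p = 5.55e-05, SE 0.28) in the authors' deposited table. Slc5a10 stood at 83.9 CPM in DM kidneys and 147 CPM in WT kidneys, with a log2 fold change of -0.81 (adjusted p = 0.0349, SE 0.28) in the authors' deposited table, just inside the threshold, and its adjusted p was 0.0503 when the 3 tables were adjusted together. SMCT2 fell here. Slc5a12 stood at 291 CPM in DM kidneys and 599 CPM in WT kidneys, with a log2 fold change of -1.04 (adjusted p = 0.0151, SE 0.33) in the authors' deposited table. Slc2a4 stood at 26.5 CPM in DM kidneys and 54.0 CPM in WT kidneys, with a log2 fold change of -1.03 (adjusted p = 0.00782, SE 0.30) in the authors' deposited table.

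SGLT1 and GLUT5 did not pass for DM over WT. Slc5a1 stood at 95.5 CPM in DM kidneys and 116 CPM in WT kidneys, with a log2 fold change of -0.28 (adjusted p = 0.493, SE 0.21) in the authors' deposited table. Slc2a5 stood at 51.0 CPM in DM kidneys and 76.5 CPM in WT kidneys, with a log2 fold change of -0.59 (adjusted p = 0.0974, SE 0.24) in the authors' deposited table. The 3 further carriers with negative values were a lactate, a glucose and a urate carrier. Slc5a8 stood at 168 CPM in DM kidneys and 265 CPM in WT kidneys, with a log2 fold change of -0.66 (adjusted p = 0.201, SE 0.33) in the authors' deposited table. Slc2a2 stood at 136 CPM in DM kidneys and 182 CPM in WT kidneys, with a log2 fold change of -0.42 (adjusted p = 0.382, SE 0.27) in the authors' deposited table. Slc2a9 stood at 18.96 CPM in DM kidneys and 23.2 CPM in WT kidneys, with a log2 fold change of -0.29 (adjusted p = 0.647, SE 0.29) in the authors' deposited table. GLUT1 had the 1 positive value. Slc2a1 stood at 122.1 CPM in DM kidneys and 110 CPM in WT kidneys, with a log2 fold change of 0.15 (adjusted p = 0.791, SE 0.20) in the authors' deposited table.

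A carrier that passes in SM kidneys and not in DM kidneys is not thereby shown to differ between them. For DM over SM, the authors' deposited edgeR likelihood ratio test called 0 of the 10 carriers, 0 of them had an unadjusted p below 0.05, and 0.0789% of all rows were called. The fold change was positive for 8 of the 10, with a median of 0.22 against 0.00 for rows in the carriers' range of level. The carriers were measured in the same libraries and do not count as replicates. Of 12 early proximal tubule genes, 8 were positive too, with a median of 0.09. Of 11 genes of the last proximal segment, 7 were positive, with a median of 0.10. GLUT4 had the highest fold change of the 10 carriers. Slc2a4 stood at 26.5 CPM in DM kidneys and 18.5 CPM in SM kidneys, with a log2 fold change of 0.52 (adjusted p = 1, SE 0.31) and a 95% interval of -0.10 to 1.14 in the authors' deposited table. Slc5a1 stood at 95.5 CPM in DM kidneys and 76.4 CPM in SM kidneys, with a log2 fold change of 0.32 (adjusted p = 1, SE 0.22) and an interval of -0.11 to 0.76 in the authors' deposited table. Slc5a2 stood at 225 CPM in DM kidneys and 202 CPM in SM kidneys, with a log2 fold change of 0.16 (adjusted p = 1, SE 0.29) and an interval of -0.40 to 0.72 in the authors' deposited table. The negative values were those of the SMCT2 and GLUT1 genes. Slc5a12 stood at 291 CPM in DM kidneys and 354 CPM in SM kidneys, with a log2 fold change of -0.28 (adjusted p = 1, SE 0.34) and an interval of -0.95 to 0.38 in the authors' deposited table. Slc2a1 stood at 122.1 CPM in DM kidneys and 128 CPM in SM kidneys, with a log2 fold change of -0.07 (adjusted p = 1, SE 0.21) and an interval of -0.48 to 0.34 in the authors' deposited table. The other 5 carriers had log2 fold changes between 0.18 for Slc2a2 and 0.38 for Slc2a9 in the authors' deposited table. Such intervals do not show that DM and SM kidneys are alike.

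**Figure D3:**
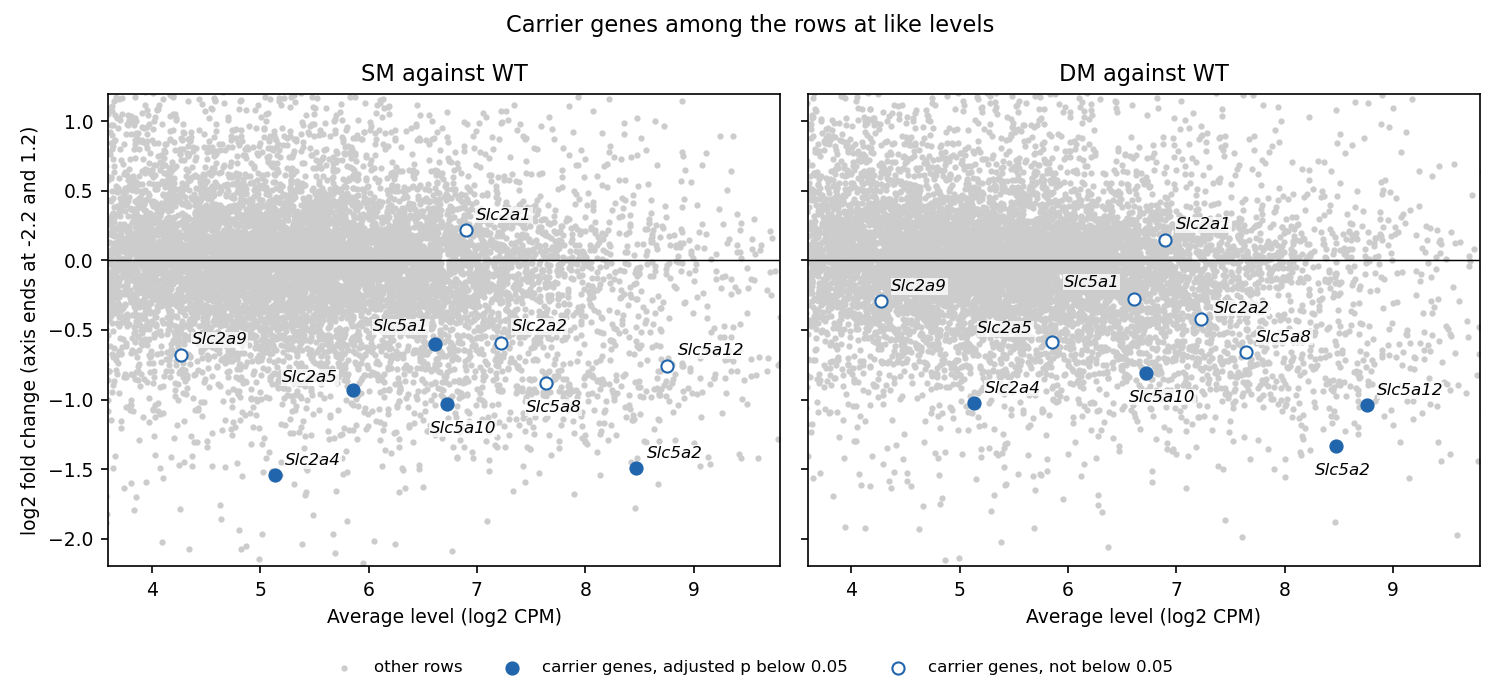
log2 fold change against average level (log2 CPM) for the 10 carriers and the other rows, in 1 panel for each comparison with WT, from the authors' deposited tables. Slc2a1 is the 1 carrier above 0 in both panels, and the 5 carriers called for SM over WT lie between -1.54 and -0.60.

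Further members of both carrier families moved in either direction. Counts of this and the next lists are to be read beside the 13.5% of all rows called for DM over WT and the 14% called for SM over WT. Rows with an average over 1 CPM, as most genes of the carrier, enzyme and regulator lists are, were called more often. Of 15135 such rows, 1711 rose and 1291 fell for DM over WT, and 1840 rose and 1433 fell for SM over WT. Of 16 further family genes, with the sugar channel gene Slc50a1 among them, 4 fell and 2 rose for DM over WT in the authors' deposited tables. For SM over WT, 5 fell and 3 rose there. The medians were -0.27 for DM over WT and -0.38 for SM over WT. Slc5a11, a sodium-coupled inositol carrier, stood at 24.5 CPM in DM kidneys, 18.9 CPM in SM kidneys and 50.6 CPM in WT kidneys, and the authors' deposited tables gave log2 fold changes of -1.04 (SE 0.24) for DM over WT and -1.42 (SE 0.25) for SM over WT. Slc5a6, which carries biotin and pantothenate, had log2 fold changes of -0.90 (SE 0.21) for DM over WT and -0.85 (SE 0.21) for SM over WT in the authors' deposited tables. GLUT12 (Slc2a12) fell for DM over WT, with a log2 fold change of -0.999 (adjusted p = 0.0119, SE 0.31) in the authors' deposited table.

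GLUT3 (Slc2a3), a high-affinity glucose carrier of neurons and white blood cells, and GLUT6 (Slc2a6) rose in both mutants. Slc2a3 stood at 3.39 CPM in DM kidneys, 4.28 CPM in SM kidneys and 1.56 CPM in WT kidneys, with log2 fold changes of 1.12 (SE 0.35) for DM over WT and 1.46 (SE 0.36) for SM over WT in the authors' deposited tables. Slc2a6 stood at 4.33 CPM in DM kidneys, 2.20 CPM in SM kidneys and 0.497 CPM in WT kidneys, with log2 fold changes of 3.12 (SE 0.61) for DM over WT and 2.14 (SE 0.60) for SM over WT in the authors' deposited tables. Macrophage markers were higher as well, 7 of 8 for DM over WT and 8 of 8 for SM over WT in the authors' deposited tables. Their summed level was 331 CPM in DM kidneys, 359 CPM in SM kidneys and 108 CPM in WT kidneys, with 0 at the lowest level, and their part in the values of Slc2a3 and Slc2a6 was not tested.

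Proton-coupled members of the monocarboxylate carrier family (SLC16) move lactate and pyruvate without sodium. Of 7 genes of that family and its partner proteins, not all of them known lactate carriers, 2 fell and 1 rose for DM over WT, and 2 fell and 1 rose for SM over WT, in the authors' deposited tables, with medians of 0.05 and -0.51. MCT2 (Slc16a7) stood at 99.4 CPM in DM kidneys, 101 CPM in SM kidneys and 280 CPM in WT kidneys, with log2 fold changes of -1.50 (SE 0.26) for DM over WT and -1.48 (SE 0.26) for SM over WT in the authors' deposited tables. Slc16a4 stood at 77.2 CPM in DM kidneys, 66.01 CPM in SM kidneys and 168 CPM in WT kidneys, with log2 fold changes of -1.12 (SE 0.21) for DM over WT and -1.34 (SE 0.22) for SM over WT in the authors' deposited tables. MCT4 (Slc16a3), the lactate exporter of glycolytic cells, was the gene that rose. Slc16a3 stood at 14.5 CPM in DM kidneys, 16.5 CPM in SM kidneys and 3.76 CPM in WT kidneys, with log2 fold changes of 1.95 (SE 0.35) for DM over WT and 2.13 (SE 0.35) for SM over WT in the authors' deposited tables. Tubular injury markers were higher with it, 10 of 10 for DM over WT and 10 of 10 for SM over WT in the authors' deposited tables, with a summed level of 9434 CPM in DM kidneys, 10046 CPM in SM kidneys and 2642 CPM in WT kidneys and 0 at the lowest level. Their part in the value of Slc16a3 was not tested.

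Urate carriers other than GLUT9 were mostly lower where they passed. Of 11 genes, 6 fell and 0 rose for DM over WT, and 6 fell and 1 rose for SM over WT, in the authors' deposited tables, with medians of -0.65 and -0.95. The organic anion exchanger Slc22a6 stood at 141 CPM in DM kidneys, 124 CPM in SM kidneys and 397 CPM in WT kidneys, with log2 fold changes of -1.50 (SE 0.22) for DM over WT and -1.68 (SE 0.22) for SM over WT in the authors' deposited tables. Its relative Slc22a8 had log2 fold changes of -1.37 (SE 0.27) for DM over WT and -1.55 (SE 0.27) for SM over WT in the authors' deposited tables. Pdzk1, a scaffold that holds carriers at the brush border, had log2 fold changes of -1.17 (SE 0.28) for DM over WT and -1.19 (SE 0.28) for SM over WT in the authors' deposited tables. The phosphate and urate carrier Slc17a3 had log2 fold changes of -0.84 (SE 0.22) for DM over WT and -1.18 (SE 0.22) for SM over WT in the authors' deposited tables.

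Among 19 genes of glucose and fructose handling, 4 fell for DM over WT and 9 for SM over WT, and 0 rose in either, in the authors' deposited tables, with medians of -0.64 and -0.85. Those that fell include enzymes of glucose production and fructose breakdown. Fbp1, the fructose bisphosphatase of gluconeogenesis, stood at 436 CPM in DM kidneys, 409 CPM in SM kidneys and 1075 CPM in WT kidneys, with log2 fold changes of -1.30 (SE 0.30) for DM over WT and -1.39 (SE 0.30) for SM over WT in the authors' deposited tables. Khk, the kinase that starts fructose breakdown, stood at 201 CPM in DM kidneys, 156 CPM in SM kidneys and 372 CPM in WT kidneys, with log2 fold changes of -0.89 (SE 0.29) for DM over WT and -1.25 (SE 0.30) for SM over WT in the authors' deposited tables. Sord, which turns sorbitol into fructose, had log2 fold changes of -1.13 (SE 0.30) for DM over WT and -1.05 (SE 0.29) for SM over WT in the authors' deposited tables. Pck1, the entry enzyme of gluconeogenesis, had log2 fold changes of -0.91 (adjusted p = 0.0653, SE 0.35) for DM over WT and -1.50 (adjusted p = 6.03e-04, SE 0.36) for SM over WT in the authors' deposited tables, and 0 of the 19 genes passed for DM over SM. Ldhb, a lactate dehydrogenase subunit, had log2 fold changes of -0.96 (SE 0.28) for DM over WT and -0.91 (SE 0.28) for SM over WT in the authors' deposited tables.

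Of 14 regulators and accessory genes, 2 fell and 0 rose for DM over WT, and 4 fell and 1 rose for SM over WT, in the authors' deposited tables, with medians of -0.08 and -0.12. For DM over WT that is close to the 13.5% of all rows called. Hnf4a, a nuclear receptor of proximal tubule and liver, stood at 457 CPM in DM kidneys, 446 CPM in SM kidneys and 786 CPM in WT kidneys, with log2 fold changes of -0.78 (adjusted p = 0.0206, SE 0.25) for DM over WT and -0.82 (adjusted p = 0.0136, SE 0.26) for SM over WT in the authors' deposited tables.

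MAP17 (Pdzk1ip1), the small protein that SGLT2 needs for its activity, did not pass. Pdzk1ip1 stood at 477 CPM in DM kidneys, 488 CPM in SM kidneys and 586 CPM in WT kidneys, with log2 fold changes of -0.30 (adjusted p = 0.633, SE 0.28) for DM over WT and -0.27 (adjusted p = 0.694, SE 0.28) for SM over WT in the authors' deposited tables. Txnip, which lowers glucose uptake by GLUT1 and GLUT4, had log2 fold changes of 0.23 (adjusted p = 0.761, SE 0.29) for DM over WT and 0.64 (adjusted p = 0.131, SE 0.29) for SM over WT in the authors' deposited tables. Sgk1, a kinase that acts on sodium-coupled carriers, had log2 fold changes of 0.05 (adjusted p = 1, SE 0.28) for DM over WT and -0.45 (adjusted p = 0.371, SE 0.28) for SM over WT in the authors' deposited tables. Other genes that passed for SM over WT were the Txnip relative Arrdc4, the sugar-sensing transcription factor Mlxipl and the insulin receptor substrate Irs1. Arrdc4 rose, with a log2 fold change of 0.68 (adjusted p = 0.00586, SE 0.19), while both others fell, Mlxipl with a log2 fold change of -0.87 (SE 0.23) and Irs1 with -0.81 (SE 0.24) in the authors' deposited table.

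Genes that mark the tubule segments of these carriers were read beside them. Of 12 early proximal tubule genes, 12 fell for DM over WT and 10 for SM over WT in the authors' deposited tables, with medians of -1.26 and -1.21. This list shares Slc22a6 and Slc22a8 with the urate carriers and Hnf4a with the regulators. Its summed level was 6150.4 CPM in DM kidneys, 6012 CPM in SM kidneys and 14882 CPM in WT kidneys, with 0 genes at the lowest level. Of 11 genes of the last proximal segment, 4 fell and 1 rose for DM over WT, and 4 fell and 1 rose for SM over WT, in the authors' deposited tables, with medians of -0.70 and -0.67. Their summed level was 4359 CPM in DM kidneys, 4073 CPM in SM kidneys and 6217 CPM in WT kidneys, with 0 at the lowest level. The part of these segment genes in the carriers' values was not tested.

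**Figure D4:**
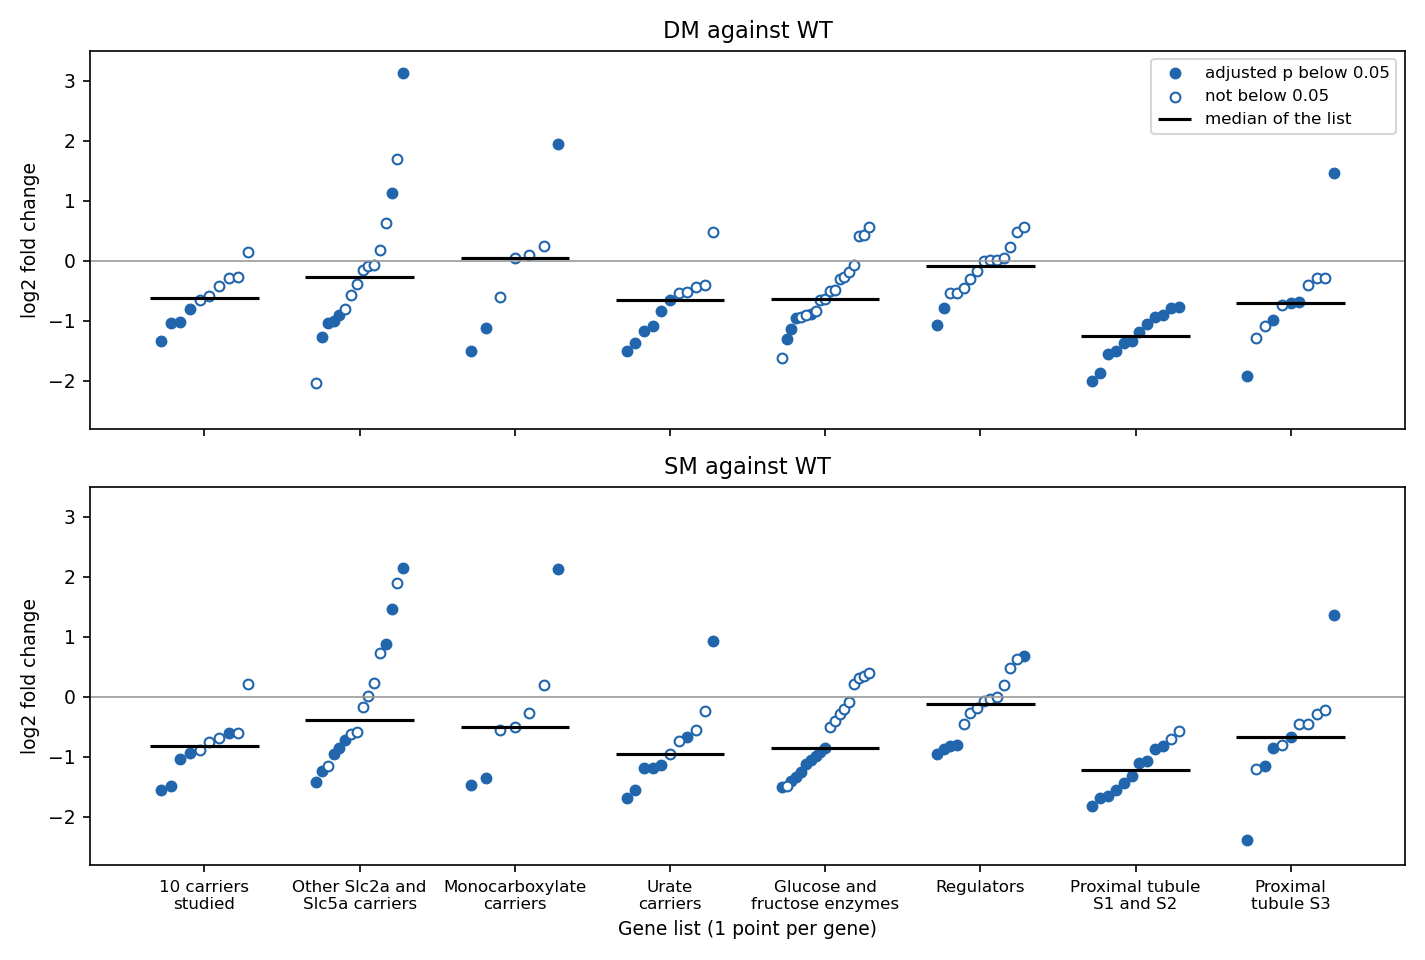
log2 fold change of each gene in each list for each comparison with WT, from the authors' deposited tables, with filled points for an adjusted p below 0.05 and a line at the median of a list. The early proximal tubule genes lie below 0, with medians of -1.26 for DM over WT and -1.21 for SM over WT, while the 10 carriers have medians of -0.62 and -0.82.

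Tissues outside the tubule also make some of these carriers. Liver makes GLUT2 and GLUT9, and of 18 hepatocyte markers 12 fell and 2 rose for DM over WT, and 13 fell and 1 rose for SM over WT, in the authors' deposited tables. The median log2 fold change of the 18 was -4.45 for DM over WT and -4.22 for SM over WT. Their summed level fell by less, at 417 CPM in DM kidneys, 367 CPM in SM kidneys and 481 CPM in WT kidneys. Of the 18, 0 were at the lowest level, but only 13 averaged over 1 CPM. The medians of those 13 were -1.31 for DM over WT and -1.63 for SM over WT. Albumin (Alb), which is part of the summed level, stood at 1.03 CPM in DM kidneys, 0.328 CPM in SM kidneys and 132 CPM in WT kidneys. The part of these markers in the values of Slc2a2 and Slc2a9 was not tested. Fat makes GLUT4, and of 8 fat cell markers 0 passed for DM over WT and 1, Retn, fell for SM over WT in the authors' deposited tables. In each comparison 7 of the 8 were negative and 1 positive. The median log2 fold changes were -0.76 for DM over WT and -0.82 for SM over WT, with wide errors (median SE 0.80 and 0.83). Few calls therefore do not show that these markers held steady. The summed level of the fat cell markers was 440 CPM in DM kidneys, 470 CPM in SM kidneys and 699 CPM in WT kidneys, with 0 at the lowest level, and their part in the value of Slc2a4 was not tested. Skeletal muscle makes GLUT4 too. Its 8 markers summed to 2.79 CPM in DM kidneys, 2.83 CPM in SM kidneys and 2.52 CPM in WT kidneys, with Myh4 at the lowest level and Tnni2 higher in both mutants in the authors' deposited tables.

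Shared exons touch SGLT2 and SGLT5 most. Of the exon bases of Slc2a1, 2.99% lie in exons of Gm12868 on the opposite strand. Of the exon bases of Slc5a2, 20.6% also lie in exons of BC017158 on the opposite strand, and of those of Slc5a10, 16.6% lie in exons of Fam83g on the opposite strand. The library kit marks strand, but whether counting used it is not stated, so the values of these carriers are uncertain to that extent. BC017158 stood at 32.4 CPM in DM kidneys, 34.95 CPM in SM kidneys and 32.1 CPM in WT kidneys. Fam83g stood at 9.72 CPM in DM kidneys, 10.8 CPM in SM kidneys and 17.1 CPM in WT kidneys, with log2 fold changes of -0.81 (adjusted p = 0.018, SE 0.26) for DM over WT and -0.67 (adjusted p = 0.0688, SE 0.26) for SM over WT in the authors' deposited tables. It thus fell for DM over WT, where Slc5a10 had -0.81, and the part of shared reads in the value of Slc5a10 was not tested.

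Solute carrier genes most like Slc5a2, Slc2a4 and Slc2a5, the 3 carriers with the strongest tests for SM over WT, were sought among 300 rows of that name with an average of at least 1 CPM. Likeness was the distance between genes in the plane of the pair of log2 fold changes over WT, which rests on 3 group levels. Nearest to Slc5a2 were the phosphate carrier Slc34a1 at 0.059, the organic anion carrier Slc22a8 at 0.067 and the nucleoside carrier Slc28a1 at 0.085. Nearest to Slc2a4 were the inositol carrier Slc5a11 at 0.13, the distal tubule salt carrier Slc12a3 at 0.13 and the zinc carrier Slc30a2 at 0.17. Nearest to Slc2a5 were the peptide carrier Slc15a2 at 0.037, the mitochondrial ornithine carrier Slc25a15 at 0.039 and the GABA carrier Slc6a13 at 0.08. Over the 291 solute carrier rows of that level outside the 10 studied, 28.2% fell for DM over WT and 30.9% for SM over WT in the authors' deposited tables.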

How the data were processed

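RNA of 10 whole kidneys (3 DM, 3 SM and 4 WT, each with an animal number of its own) was made into stranded total RNA libraries, according to the protocols in the labels. Tools named in the submitters' processing notes, without roles, are edgeR 3.2.4, Subread 1.4.6, featureCounts, Cufflinks, TopHat2 2.0.12 and bcl2fastq 1.8.4, and the build is mm10. The authors deposited 3 comparison tables of 30431 rows with no library values. The file headers name deposited columns of log2 fold change and average log2 CPM. They also name a deposited likelihood ratio score, a deposited p-value and its false discovery rate. Checks on the files found equal averages, fold changes that subtract between tables, and Benjamini-Hochberg adjustment over all rows, as from 1 fit without a filter.

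The planned count test needs library values and could not be run, so its planned replacement, the authors' adjusted p below 0.05, was used. The SE is the absolute log2 fold change over the root of the likelihood ratio, and 95% intervals are normal. Group CPM assumes libraries of equal weight. The code of these steps was run on simulated counts with equal depth and a known spread (Python 3.11.15, scipy 1.17.1). That check cannot show that values derived from the authors' fit are right. Exon lengths and positions came from GENCODE mouse release 21 (GRCm38). With no depth known, no counting interval is given.

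The carriers, lists and markers were chosen with earlier results of these data known. All 10 carriers are described. From each pathway list, up to 4 called genes per comparison with the highest likelihood ratio were named, and Pdzk1ip1, Hnf4a, Txnip and Sgk1 whatever their values. A regulator that the rule also takes is not reported here. Marker genes and overlapping genes named beyond that were chosen after their values were seen. Alternatives changed the rows or tables adjusted over, the threshold and the centring.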

Additional observations from a re-analysis of the deposited data

How the results depend on the processing

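Adjusting over rows above 1 CPM, over named rows or over the 3 tables together, an adjusted p below 0.01, and centring on the median of rows above 1 CPM were tried on the calls and fold changes of the 10 carriers and on the counts of 7 gene lists, in 3 comparisons. The signs of the carriers' fold changes say nothing about stability, since only the centring moves a fold change, and by too little to change a sign. At an adjusted p below 0.01 the carriers called for DM over WT numbered 2 in place of 4, without Slc5a10 and Slc5a12, and Slc5a1 was no longer called for SM over WT. Over the 3 tables together Slc5a10 for DM over WT had an adjusted p of 0.0503. Slc5a1 for SM over WT had 0.04999 there, barely inside the threshold. At an adjusted p below 0.01 the further SLC2 and SLC5 carriers called numbered 5 in place of 8 for SM over WT and 3 in place of 6 for DM over WT, the last-segment genes 3 in place of 5 for SM over WT, and the regulators 1 in place of 2 for DM over WT. Last-segment genes for SM over WT also numbered 3 over the 3 tables together. Of 80 counts under these alternatives in the comparisons with WT, the other 74 stayed within 1.5 times the main count. The 40 counts for DM over SM were 0 throughout and say nothing about stability. The median of rows above 1 CPM was -0.01 for SM over WT and 0.00 for DM over WT. Leaving out each replicate could not be run on tables without library values. No paired analysis was possible because the tables hold no values per library and the animal numbers differ between groups. The 3 comparisons share libraries and are not independent of each other.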

Other observations

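Markers of further cell types gave these values. Of 8 endothelial markers 3 fell for DM over WT (Kdr, Emcn and Tek) and 0 passed for SM over WT in the authors' deposited tables, with a summed level of 711 CPM in DM kidneys, 929 CPM in SM kidneys and 971 CPM in WT kidneys. By edgeR's likelihood ratio test there, 2 of them had an unadjusted p below 0.05 for SM over WT. Of 7 smooth muscle and mural markers 2 rose for DM over WT and 4 for SM over WT, Acta2 and Tagln in both, in the authors' deposited tables. Of 9 red cell markers 4 globin genes were at the lowest level, and Slc4a1, which intercalated cells also make, fell in both mutants in the authors' deposited tables. Their summed level was 305 CPM in DM kidneys, 448 CPM in SM kidneys and 677 CPM in WT kidneys. The globin row Beta-s stood at 262 CPM in DM kidneys, 388 CPM in SM kidneys and 545 CPM in WT kidneys, with log2 fold changes of -1.06 (adjusted p = 0.185, SE 0.52) for DM over WT and -0.49 (adjusted p = 0.672, SE 0.51) for SM over WT in the authors' deposited tables. Alas2 stood at 16.9 CPM in DM kidneys, 36.9 CPM in SM kidneys and 35.3 CPM in WT kidneys, with log2 fold changes of -1.06 (adjusted p = 0.159, SE 0.50) for DM over WT and 0.06 (adjusted p = 1, SE 0.48) for SM over WT in the authors' deposited tables. Of 8 collecting duct markers 3 rose and 2 fell for DM over WT, and 4 rose and 2 fell for SM over WT, in the authors' deposited tables. Of 6 thick limb and distal tubule markers 4 fell for DM over WT and 5 for SM over WT in the authors' deposited tables, with medians of -1.28 and -1.59. The summed level of these 6 was 5367 CPM in DM kidneys, 4696 CPM in SM kidneys and 8932 CPM in WT kidneys. A fall against WT was thus not confined to proximal tubule genes. Small intestine makes SGLT1 and GLUT5. Of its 6 markers, 2 fell for DM over WT (Fabp2 and Alpi) and 1 for SM over WT (Alpi) in the authors' deposited tables. Only 2 of the 6 averaged over 1 CPM, with median log2 fold changes of -0.17 for DM over WT and -0.12 for SM over WT. The part of these markers in the values of Slc5a1 and Slc2a5 was not tested.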
